A study of Mus musculus with 2 samples.

Results

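The genes described here are 8 transcription factors of the embryonic dermis: Twist1, Twist2, Prrx1, Prrx2, Trps1, En1, Irx1 and Tcf4. They were taken as a named list, 8 of the 32285 genes counted, and all 8 were measured in every comparison below unless a count is given. The list was chosen with earlier results of these data known. Counts of members beside shares of all genes therefore describe the members and are not a test of the list. Their transcripts were counted in single cells of mouse flank and dorsolateral skin at stage E14.5 of the embryo, when hair placodes and the dermal condensates beneath them are forming. The series holds 2 libraries, 1 per genotype. The wildtype library came from littermate controls, and the labels do not say which alleles those carried. The Wntless mutant library came from a cross of K14Cre mice, in which the keratin 14 promoter drives Cre in epidermal keratinocytes, to Wntless fl/fl mice. Wntless (Wls) is the carrier that cells need to secrete Wnt proteins. Each library pooled 2 to 3 embryos after genotyping, so there is no replicate check on any difference between genotypes, no test is given, and cells are not treated as replicates. The intervals are exact 95% intervals for counting error only.

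Twist1 and Twist2 are basic helix-loop-helix (bHLH) repressors and activators of mesenchymal cells, and they pair with broadly expressed E proteins, of which Tcf4 (E2-2, not the Wnt effector Tcf7l2) is one. Prrx1 and Prrx2 are paired-type homeobox factors of limb, face and body wall mesenchyme, and En1 and Irx1 are homeobox factors of the Engrailed and Iroquois families. En1 marks the lineage of back dermal fibroblasts that makes much of the scar matrix. Trps1 is a GATA-type zinc finger repressor known for its roles in hair follicles and cartilage. Wnt proteins from the epidermis act on the dermis beneath through beta-catenin and Lef1, and Dkk1 and Axin2 are target genes of that pathway.

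Promoter sequences are shown for the Twist pair, whose levels were in nearly the same proportion in the dermis of both genotypes, and for Prrx2, whose level separated from that of its paralogue. They are the 250 bases before the transcription start in RefSeq's GRCm38.p6, at chr12:33957421-33957670 for Twist1, chr1:91801211-91801460 for Twist2 and chr2:30845117-30845366 for Prrx2, all on the plus strand and 5′ to 3′. The RefSeq start of Prrx2 lies inside the longer gene model given with the loci. Capitals mark CCAAT and TATAA.
Twist1: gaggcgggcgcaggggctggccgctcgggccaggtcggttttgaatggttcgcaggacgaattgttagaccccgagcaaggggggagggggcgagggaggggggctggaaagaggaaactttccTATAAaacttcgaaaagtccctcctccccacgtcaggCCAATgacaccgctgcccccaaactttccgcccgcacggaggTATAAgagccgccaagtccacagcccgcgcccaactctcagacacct
Twist2: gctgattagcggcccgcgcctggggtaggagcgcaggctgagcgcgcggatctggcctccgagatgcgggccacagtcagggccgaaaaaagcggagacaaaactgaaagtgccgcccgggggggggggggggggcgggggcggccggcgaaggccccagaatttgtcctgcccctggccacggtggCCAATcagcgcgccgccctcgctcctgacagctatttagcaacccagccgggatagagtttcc
Prrx2: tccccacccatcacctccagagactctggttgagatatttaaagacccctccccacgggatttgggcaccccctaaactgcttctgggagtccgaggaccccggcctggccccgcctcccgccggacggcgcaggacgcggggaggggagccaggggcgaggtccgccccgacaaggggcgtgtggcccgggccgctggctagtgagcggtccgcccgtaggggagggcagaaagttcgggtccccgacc
Of the 8 members, 5 had a promoter in the table used here, the others in it being Prrx1 and En1. The windows of Twist1 (62.4% G and C, 18 CpG), Twist2 (68.8%, 23 CpG) and Prrx2 (70.0%, 21 CpG) were richer in CpG than the median of 32851 promoters (52.4%, 6 CpG), whereas that of Prrx1 (47.6%, 4 CpG) was not. CCAAT starts 89 bases before the start of Twist1 and 63 bases before that of Twist2, and 33.8% of all windows hold it on either strand. TATAA starts 126 and 47 bases before the start of Twist1, and 22.8% of all windows hold it. The Wnt effector motif CTTTGA (in 13.8% of windows) and the E-box CATCTG (in 14.4%) were searched on both strands, and these letters are in none of the 5 members' windows.

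The members lie on 6 chromosomes of GRCm38. Twist1 (ENSMUSG00000035799) is at chr12:33957671-33959829 on the plus strand and Twist2 (ENSMUSG00000007805) at chr1:91801461-91848028 on the plus strand. Prrx1 (ENSMUSG00000026586) is at chr1:163245119-163313710 on the minus strand and Prrx2 (ENSMUSG00000039476) at chr2:30834972-30881251 on the plus strand. Trps1 (ENSMUSG00000038679) is at chr15:50654752-50890463 on the minus strand. En1 (ENSMUSG00000058665) is at chr1:120602418-120607992 on the plus strand, Irx1 (ENSMUSG00000060969) at chr13:71957921-71963723 on the minus strand and Tcf4 (ENSMUSG00000053477) at chr18:69343356-69689079 on the plus strand.

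The wildtype library held 9065 cell barcodes with a median of 11341 UMIs (unique molecular identifiers, 1 per captured transcript), and the mutant library 10449 with a median of 14602. The authors' lists of dermal barcodes named 5300 wildtype cells, which held 62876844 UMIs, and 5028 mutant cells, which held 81179288. All 8 fibroblast markers were detected in both lists, with a summed level of 15267 CPM (UMIs per 1000000 of the class) in wildtype and 21679 in the mutant. Markers of other cells were low there, except that the summed erythroid level was 535 CPM in wildtype and 1289 CPM in the mutant. Wls checked the labels: it was at 122 CPM in wildtype and 7.64 CPM in mutant keratinocyte-like cells (log2 ratio -4.00, interval -4.55 to -3.50), and at 91.8 and 77.0 CPM in the dermis. The libraries shared 19 barcodes, 4 of them on both dermal lists.

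In the dermis as a whole, Trps1 and Prrx2 were lower in the mutant, En1 was slightly higher, and the Twist pair, Prrx1, Irx1 and Tcf4 were lower by less than 1.5-fold. A gene was called at a ratio of at least 1.5-fold with at least 20 UMIs over both libraries. By that rule 2 of 8 members were lower, against 5.64% of 15609 genes, and 0 of 8 were higher, against 10.9%. The median log2 ratio of mutant over wildtype was -0.37 over the members and 0.03 over all genes measured. The other scalings tried shifted all ratios by 0.02 and -0.02.

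Trps1 was at 25.5 CPM (1601 UMIs) in wildtype and at 4.61 CPM (374 UMIs) in mutant dermal cells, a log2 ratio of -2.47 (-2.63 to -2.30). Prrx2 was at 140.2 CPM (8814 UMIs) and 81.1 CPM (6584 UMIs), a log2 ratio of -0.79 (-0.84 to -0.74). These were the members past the threshold, and both ratios depended on the cells taken. The log2 ratio of Trps1 was -1.75 without cells with 2 or more condensate markers, -1.42 without the clusters that nearly all came from 1 library, and -1.27 over all clusters named fibroblast-like in place of the authors' lists. Over those fibroblast-like clusters Prrx2 was at -0.52 and not called, so 1 member, Trps1, was lower. The share of all genes lower over those clusters was not counted. Clusters 5, 8 and 17 were not named fibroblast-like. This setting thus left out their 735, 998 and 221 wildtype and 349, 9 and 0 mutant dermal list cells.

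For the bHLH factors, Twist1 was at 647 CPM in wildtype and 512 in the mutant (log2 ratio -0.34, -0.36 to -0.32), and Twist2 at 413 and 311 CPM (-0.41, -0.43 to -0.38). Their E-protein partner Tcf4 was at 924 and 716 CPM (-0.37, -0.38 to -0.35). These ratios lay close together in the listed cells. Over the fibroblast-like clusters, which lack clusters 5, 8 and 17, they were -0.27 for Twist1, -0.14 for Twist2 and -0.10 for Tcf4. Prrx1 was at 375 and 336 CPM (-0.16, -0.19 to -0.14), a smaller difference than that of its paralogue Prrx2. Irx1 was at 272 and 209 CPM (-0.38, -0.41 to -0.35), and En1 at 54.6 and 64.4 CPM (0.24, 0.18 to 0.30). At a log2 ratio of 0.32 the count lower in the mutant was 6 of 8, with Twist1, Twist2, Irx1 and Tcf4 joining Prrx2 and Trps1, against 11.8% of genes at that threshold.

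The share of cells with at least 1 UMI of each factor was compared next. Cells were first thinned to 9000 UMIs each, which left 4000 wildtype cells (1300 shallower cells left out) and 4661 mutant cells (367 left out). Twist1 was detected in 98.6% of wildtype and 96.2% of mutant dermal cells, Tcf4 in 97.2% and 94.9%, and Prrx1 in 92.7% and 90.5%. Twist2 was detected in 89.4% and 84.4%, and Irx1 in 78.6% and 71.2%. These factors were thus found in most dermal cells of either genotype. Prrx2 was detected in 64.0% (62.4% to 65.4%) of wildtype and 49.8% (48.3% to 51.2%) of mutant cells. En1 was detected in 35.7% (34.2% to 37.2%) and 41.0% (39.6% to 42.4%), and Trps1 in 13.3% (12.3% to 14.4%) and 3.97% (3.43% to 4.57%). Without thinning the shares were 16.5% and 6.19% for Trps1, 69.2% and 66.7% for Prrx2, and 41.3% and 56.4% for En1. The shares were lower in the mutant for 7 of 8 members with intervals that did not overlap, and higher for En1. With this many cells the intervals are narrow. The same count over all genes was not made, so it is not read as particular to these factors. The median dermal cell held UMIs of 6 of the 8 factors in wildtype and of 5 in the mutant.

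Erythroid-like cells, which should lack these factors, gave the background from free RNA. At 5000 UMIs per cell, Twist1 was detected in 2.69% of 520 wildtype and 3.28% of 1342 mutant erythroid-like cells (unthinned medians of 8103 and 12293 UMIs). In the dermis, with median depths of 11154 and 15566 UMIs, the Twist1 shares at 5000 UMIs were 92.5% and 87.4%. Tcf4 was detected in 2.5% and 4.02% of erythroid-like cells against 91.4% and 87.5% of dermal cells, and Prrx2 in 1.54% and 1.04% against 45.4% and 33.0%. En1 was detected in 0.577% and 0.671% against 22.0% and 25.2%. Trps1 was detected in 9.51% and 2.02% of dermal cells and in 0 of either set of erythroid-like cells, which allows shares of up to 0.577% and 0.224%. Every factor named here was above this background in the dermis of both genotypes.

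**Figure D1:**
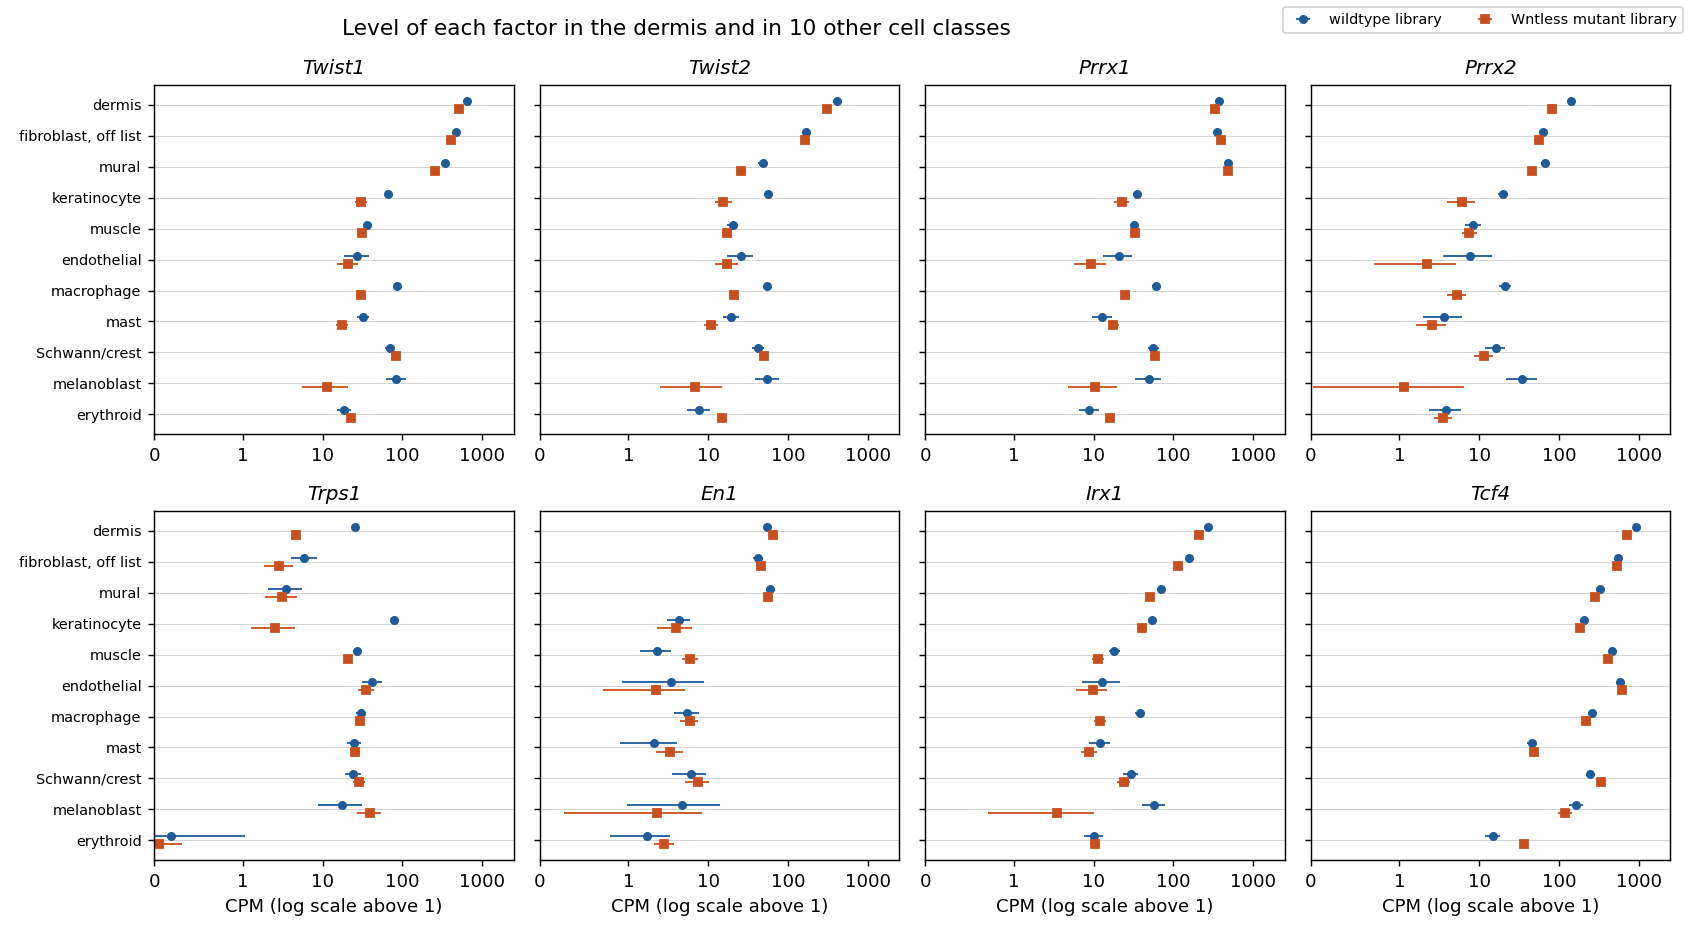
Level of each factor, in CPM on an axis that is linear below 1 and logarithmic above it, in the dermis and in 10 other cell classes of the wildtype (circles) and Wntless mutant (squares) library; bars are 95% Poisson intervals. Twist2, Prrx2, Irx1 and Tcf4 are highest in the dermis of both libraries, Prrx1 is highest in mural-like cells (478 and 483 CPM), and Trps1 goes from 77.8 CPM in wildtype to 2.55 CPM in mutant keratinocyte-like cells.

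Over the dermis and 10 other classes named by markers, the dermis held the highest level of 5 of 8 members in wildtype and 6 of 8 in the mutant. How many of all genes were highest in the dermis was not counted, so these counts describe the members alone. Twist1, Twist2, Prrx2, Irx1 and Tcf4 were highest in the dermis of both libraries. Fibroblast-like cells off the dermal lists, which had the fibroblast markers, came next for Twist1 (472 CPM in wildtype and 412 in the mutant), Twist2 (170.4 and 164 CPM) and Irx1 (157 and 115 CPM). Mural-like cells, the cells that wrap small vessels, were the next class for Twist1 at 342 and 257 CPM. Their intervals did not overlap those of the neighbours in these orders.

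Prrx1 was highest in mural-like cells, at 478 CPM (459.8 to 498) in wildtype and 483 CPM (467 to 499.9) in the mutant. In wildtype the dermis (375 CPM) and the fibroblast-like cells off the lists (356 CPM) followed with overlapping intervals. In the mutant the fibroblast-like cells off the lists (393 CPM) stood above the dermis (336 CPM). En1 was at 59.2 CPM (52.8 to 66.2) in wildtype mural-like cells and at 54.6 CPM (52.7 to 56.4) in the dermis, which overlap. In the mutant the order turned, with 64.4 CPM in the dermis and 55.5 CPM (50.1 to 61.4) in mural-like cells. For En1 the classes outside the fibroblast and mural groups were between 1.73 and 7.42 CPM.

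Tcf4 was also well represented outside the dermis. It was at 578 CPM in wildtype and 621 CPM in mutant endothelial-like cells, at 468 and 406 CPM in muscle-like cells, and at 261 and 217 CPM in macrophage-like cells. In erythroid-like cells it was at 14.8 and 36.0 CPM. Trps1 had another order altogether. It was at 41.9 and 35.3 CPM in endothelial-like, 30.6 and 29.1 CPM in macrophage-like, 27.2 and 20.8 CPM in muscle-like and 24.8 and 25.7 CPM in mast-like cells. Schwann or neural crest-like cells held 24.1 and 28.8 CPM of Trps1, and melanoblast-like cells 17.4 CPM (8.70 to 31.2) and 39.0 CPM (27.0 to 54.5). In wildtype the dermal level of Trps1, 25.5 CPM, overlapped those of muscle-like and mast-like cells. In the mutant the dermis, at 4.61 CPM, overlapped mural-like cells (3.08 CPM) and lay below the 6 classes from muscle-like upward.

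Keratinocyte-like cells held the highest wildtype level of Trps1, 77.8 CPM (699 UMIs in 551 cells), and 2.55 CPM (11 UMIs in 173 cells) in the mutant. The log2 ratio was -4.93 (-5.94 to -4.08). In this class 5 of 8 members were lower, against 15.5% of 11569 genes. Inside the wildtype class, 228 cells with at least 2 of 8 hair placode genes held 160.3 CPM of Trps1 (548 UMIs) and 87 cells with none of them held 7.74 CPM (14 UMIs). That log2 ratio was 4.37 (3.61 to 5.25). In this comparison 1 of 8 members was higher, against 22.5% of 9872 genes, and 5 of 8 were lower. The share of all genes lower there is not given, so the count of 5 describes the members alone. The median log2 ratio was -1.37 over the members and 0.10 over all genes measured. The mutant class held 4 cells with at least 2 placode genes, with 0 UMIs of Trps1, and 71 with none, with 1 UMI. The placode gene list was chosen after the data had been seen.

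The other members that were lower in mutant keratinocyte-like cells are given beside the fibroblast transcripts Crabp1 and Col1a1. Twist1 was at 66.8 and 30.1 CPM there and Twist2 at 56.0 and 15.5 CPM. Prrx1 was at 35.2 and 22.5 CPM and Prrx2 at 20.0 and 6.02 CPM. Crabp1 was at 599 and 104 CPM and Col1a1 at 457 and 268 CPM. Macrophage-like cells had 5 of 8 members lower, against 11.8% of genes: Twist1 was at 86.4 and 30.5 CPM and Irx1 at 37.6 and 12.1 CPM, beside Crabp1 at 439 and 160.3 CPM. In erythroid-like cells 4 of 7 measured members were higher in the mutant, against 36.4% of 6087 genes, beside Crabp1 at 105 and 149.9 CPM and Col1a1 at 89.7 and 203 CPM. In Schwann or neural crest-like cells 0 of 8 were called, against 4.18% of genes lower and 8.59% higher, beside Crabp1 at 366 and 408 CPM and Col1a1 at 739 and 1387 CPM. The part of fibroblast RNA in these values was not tested. Trps1 in macrophage-like cells, at 30.6 and 29.1 CPM, had overlapping intervals between the libraries.

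Dermal cells were then sorted by markers that are not members, after thinning to 9000 UMIs. Crabp1-type cells, of the upper dermis, had at least 2 UMIs of Crabp1 and none of Clec3b or Mfap5. Clec3b/Mfap5-type cells, of the lower dermis, had at least 2 UMIs of those genes and none of Crabp1. Crabp1-type cells were 3013 (75.3%) of the wildtype and 2840 (60.9%) of the mutant cells, and Clec3b/Mfap5-type cells 208 (5.20%) and 598 (12.8%). These are ranges of marker counts and not cell types. Exactly 2 Crabp1 UMIs were seen in 39 and 51 of the upper cells, and exactly 2 UMIs of Clec3b and Mfap5 together in 25 and 78 of the lower cells.

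Upper dermal cells held more of 7 of the 8 factors than lower dermal cells in both libraries, against 18.3% of 13375 genes in wildtype and 17.3% of 14081 genes in the mutant. The median log2 ratio of upper over lower was 1.57 over the members in wildtype and 1.23 in the mutant, against 0.01 and -0.01 over all genes measured. Prrx1 was higher in upper cells by less than 1.5-fold, with 406 CPM in upper and 315 CPM in lower wildtype cells (0.37). In mutant cells it was at 360.0 and 289 CPM (0.32).

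Irx1 showed a wide difference between the layers, with 321 CPM in upper and 65.1 CPM in lower wildtype cells (2.30) and 281 and 39.8 CPM in mutant cells (2.82). Twist2 was at 491 and 122 CPM in wildtype (2.01) and 405 and 110.4 CPM in the mutant (1.88). Tcf4 was at 1095 and 304 CPM in wildtype (1.85) and 912 and 296 CPM in the mutant (1.62). These were, beside Trps1, the widest differences between the layers in both genotypes. Twist1 was at 705 and 454 CPM in wildtype (0.63) and 584 and 327 CPM in the mutant (0.84), and En1 at 60.9 and 36.8 CPM (0.73) and at 72.3 and 43.9 CPM (0.72).

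Trps1 was close to 0 in the lower dermis of both genotypes. It had 1191 UMIs in upper and 2 UMIs in lower wildtype cells (29.1 and 0.799 CPM), a log2 ratio of 5.19 with an interval of 3.33 to 8.23. The mutant had 310 UMIs in upper and 8 UMIs in lower cells (6.40 and 0.842 CPM), a log2 ratio of 2.92. Prrx2 was at 161 CPM in upper and 65.5 CPM in lower wildtype cells (1.30), and at 91.3 and 54.9 CPM in mutant cells (0.74). For Prrx2 the lower cells of the genotypes were closer than the upper cells. For Trps1 the lower cells held too few UMIs to compare the genotypes.

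**Figure D2:**
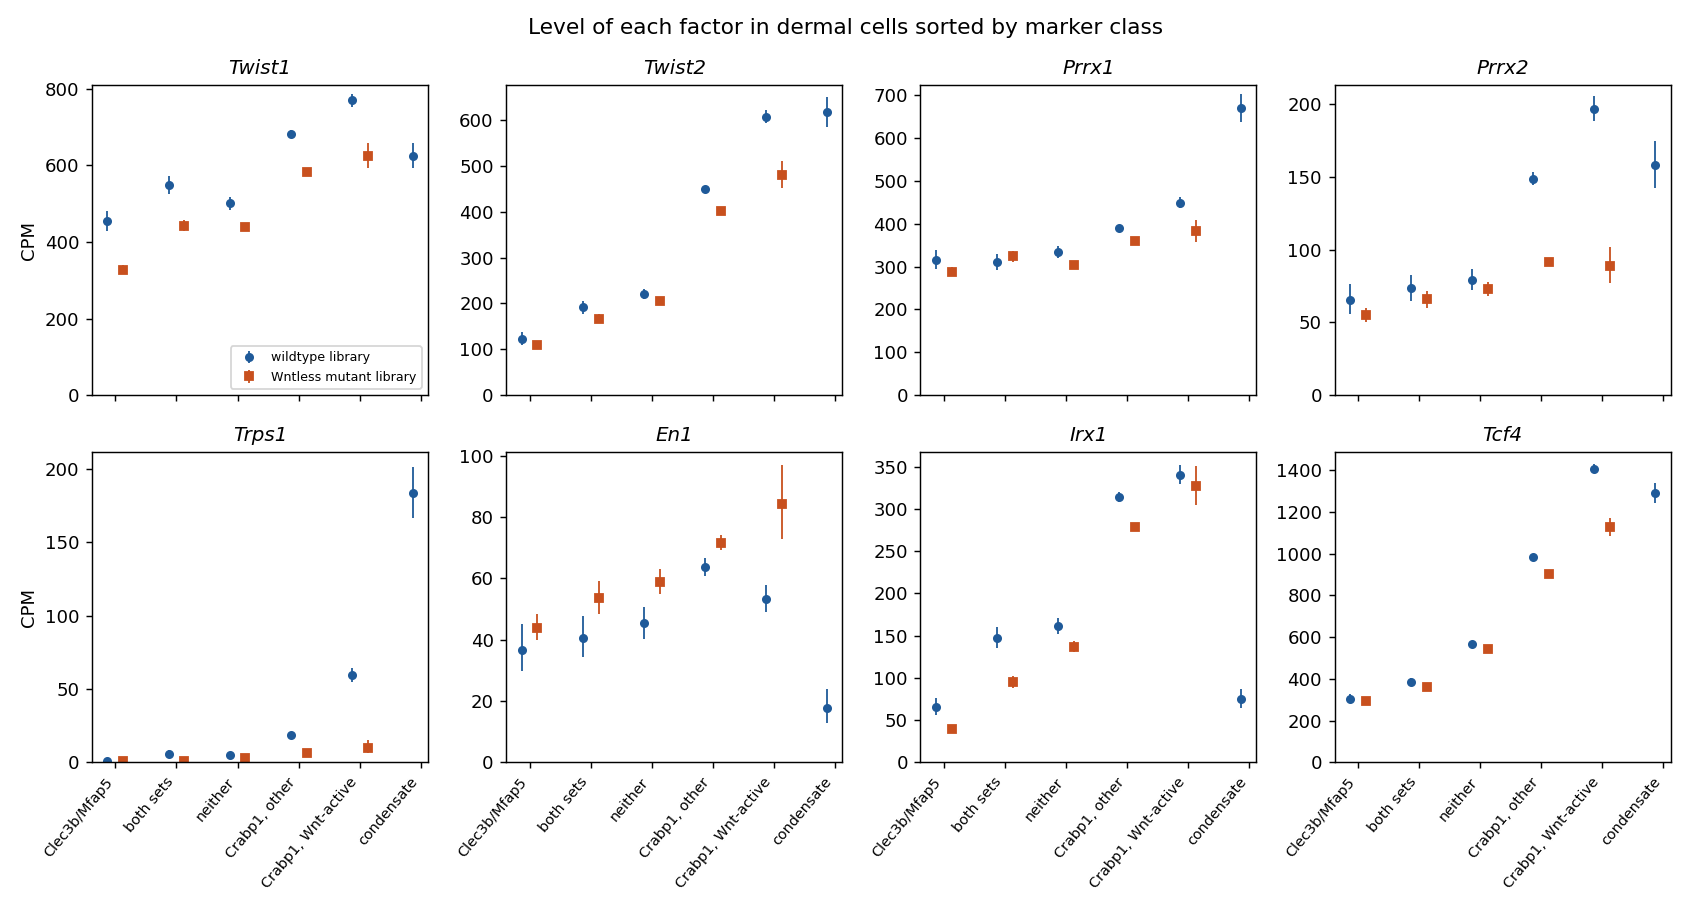
Level of each factor in CPM (linear axis from 0) in dermal cells of the wildtype (circles) and Wntless mutant (squares) library, sorted by markers from Clec3b/Mfap5-type to Crabp1-type and condensate cells; bars are 95% Poisson intervals, and condensate cells are shown for wildtype. Twist2, Irx1 and Tcf4 step up from the Clec3b/Mfap5-type to the Crabp1-type cells in both libraries, while En1 and Irx1 are at 17.7 and 74.6 CPM in condensate cells.

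Inside the Crabp1-type cells, 2 of 8 members were lower in the mutant, against 6.99% of 14425 genes, and these were again Prrx2 (161 and 91.3 CPM, log2 ratio -0.82) and Trps1 (29.1 and 6.40 CPM, -2.19). Twist1 (-0.27), Twist2 (-0.28), Prrx1 (-0.17), Irx1 (-0.19) and Tcf4 (-0.26) stayed under the threshold, as did En1 (0.25). The libraries filled this class from different clusters: cluster 0 held 63.5% of the mutant and 19.1% of the wildtype Crabp1-type cells, and clusters 2, 8 and 5 held 33.5%, 21.5% and 17.9% of the wildtype ones.

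Inside the Clec3b/Mfap5-type cells, 1 of 7 measured members was lower in the mutant, against 4.71% of 11884 genes. That member was Irx1, at 65.1 CPM in wildtype and 39.8 CPM in the mutant (-0.71, -0.98 to -0.44). Prrx2 was at 65.5 and 54.9 CPM (-0.26), and Trps1 was not measured there, with 2 and 8 UMIs. Most of these cells lay in cluster 1 in both libraries (72.6% and 72.2%), and in the dermal cells of that cluster Irx1 was at 83.0 and 45.2 CPM (-0.88, -1.03 to -0.73; 1 of 8 members lower, against 3.7% of 13016 genes).

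**Figure D3:**
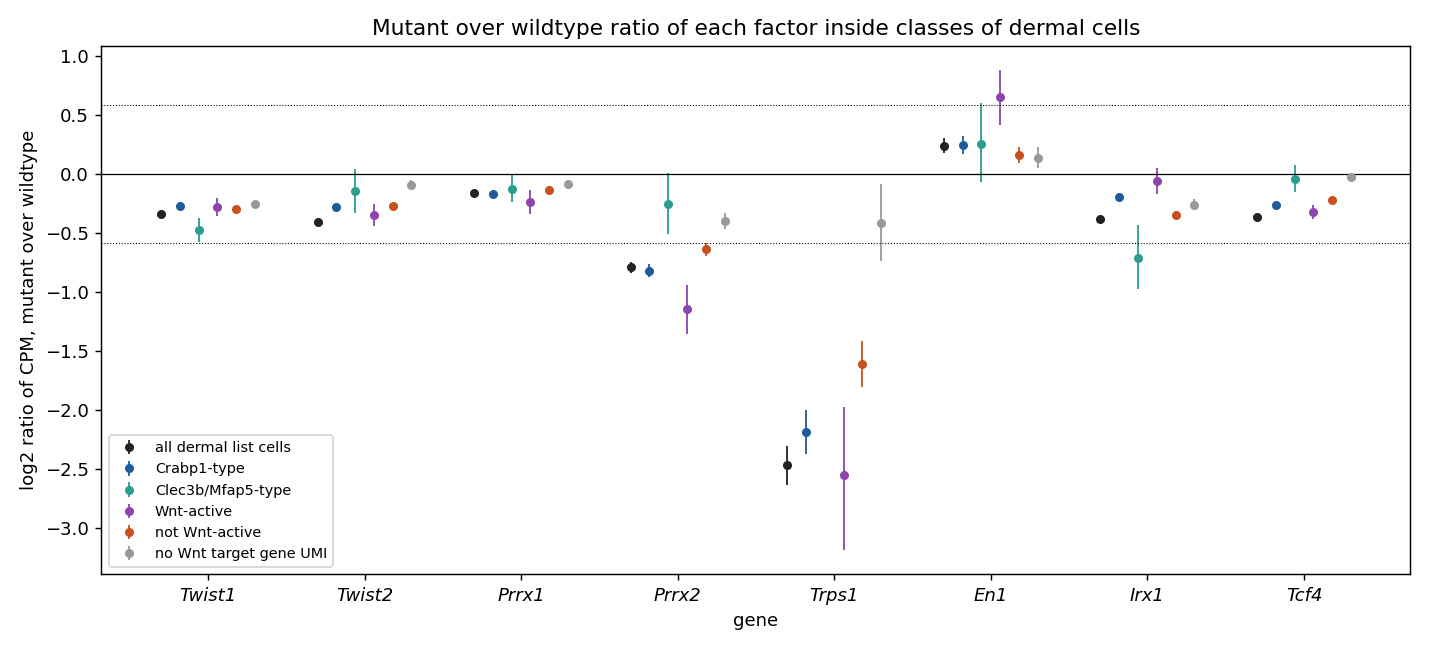
Log2 ratio of CPM, mutant over wildtype, for each factor in all dermal list cells and in 5 classes of them; bars are 95% intervals for counting error, the solid line marks no difference and the dotted lines 1.5-fold. Trps1 and Prrx2 lie below the lower dotted line in Crabp1-type, Wnt-active and not Wnt-active cells and above it in cells with no UMI of a Wnt target gene (-0.41 and -0.40).

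Cells in which 2 or more of Lef1, Dkk1 and Axin2 had a UMI were taken as Wnt-active. They made up 840 (21%) of the wildtype and 147 (3.15%) of the mutant thinned cells, and nearly all were Crabp1-type (814 and 138). None of the Clec3b/Mfap5-type cells was Wnt-active in either library. In wildtype, 4 of 8 members were higher in Wnt-active than in other dermal cells, against 8.04% of 13862 genes. These were Trps1 (59.3 and 13.8 CPM, log2 ratio 2.11), Tcf4 (1392 and 828 CPM, 0.75), Twist2 (599 and 373 CPM, 0.68) and Prrx2 (195 and 126 CPM, 0.63). In the mutant 4 of 8 were higher, against 14.1% of 14695 genes: Trps1 (10.1 and 4.51 CPM, 1.17), Irx1 (324 and 206 CPM, 0.65), Tcf4 (1112 and 711 CPM, 0.65) and Twist2 (472 and 308 CPM, 0.61). Prrx2 was at 88.2 and 81.2 CPM in the mutant (0.12).

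Among Crabp1-type cells alone the contrast was left with 1 member in each library, Trps1. It was at 59.6 CPM in Wnt-active and 18.3 CPM in other Crabp1-type cells of wildtype (1.70; 6.64% of 13159 genes were higher), and its mutant ratio was 0.68 (0.00 to 1.30; 8.46% of 13456 genes). The mutant Wnt-active Crabp1-type value rested on 23 UMIs of Trps1.

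Sorting by how many of the 3 genes had a UMI showed graded levels in wildtype. From 0 to 3 genes, Trps1 was at 4.97, 26.5, 57.0 and 68.9 CPM, and Prrx2 at 105, 157, 191 and 216 CPM. Tcf4 was at 673, 1052, 1359 and 1534 CPM, and Twist2 at 307, 469, 589.9 and 640.3 CPM. Twist1 went from 589.7 to 797 CPM, Prrx1 from 348 to 465 CPM and Irx1 from 231 to 342 CPM. En1 stood apart at 57.1, 58.0, 52.8 and 53.2 CPM, with overlapping intervals. The marker of the upper dermis, Crabp1, also increased over these cells, and its part in the gradient was not tested. Cells with condensate markers were kept in these sets, and their part in the gradient of Trps1 was not tested either. The numbers of wildtype cells were 1890, 1270, 676 and 164.

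In the mutant Prrx2 was nearly flat over these cells, and Trps1 went up from a low level. From 0 to 2 genes, Prrx2 was at 80.0, 85.1 and 88.1 CPM and Trps1 at 3.73, 7.15 and 10.4 CPM, in 3501, 1013 and 142 cells. Only 5 mutant cells had all 3 genes, and they are not described. Twist2 went from 289 through 375 to 472 CPM, Tcf4 from 662 through 877 to 1108 CPM and Irx1 from 193 through 251 to 322 CPM. En1 was at 62.7, 69.3 and 83.1 CPM, with an interval at 2 genes (71.9 to 95.4) above that at 0 (60.7 to 64.8). Equal numbers of genes did not mean equal Wnt target levels, since Lef1 was at 139 CPM in the wildtype and 51.3 CPM in the mutant cells with 2 genes.

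**Figure D4:**
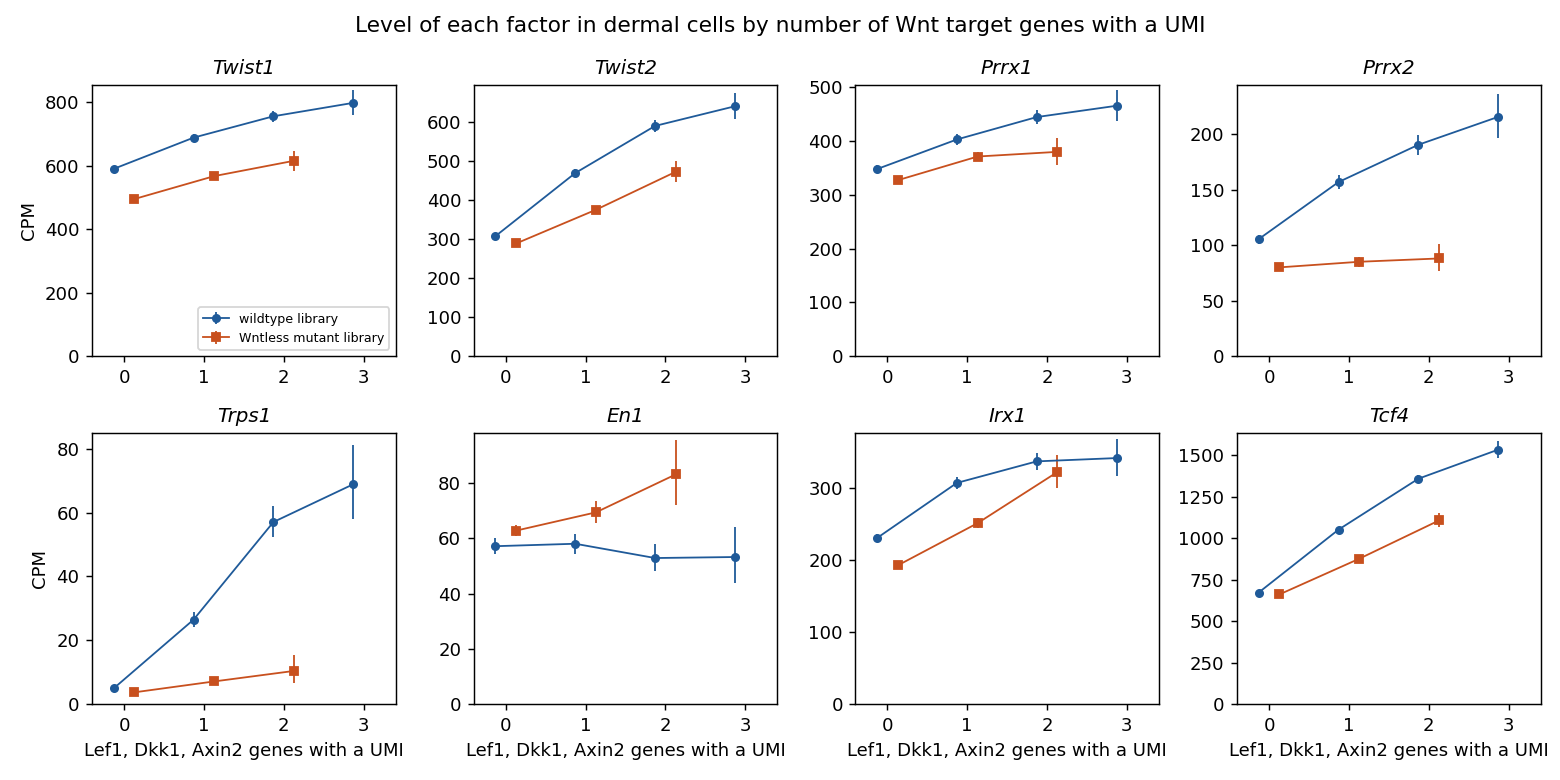
Level of each factor in CPM (linear axes from 0) in dermal cells sorted by how many of Lef1, Dkk1 and Axin2 had a UMI, for the wildtype (circles) and Wntless mutant (squares) library; bars are 95% Poisson intervals, and the 5 mutant cells with 3 genes are left out. Prrx2 goes from 105 to 216 CPM in wildtype and from 80.0 to 88.1 CPM in the mutant, whereas Tcf4 climbs in both libraries.

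The difference between genotypes thus had different sizes along this scale for the called factors. In cells with 0 Wnt genes 0 of 8 members were called, against 3.46% of 14790 genes lower and 9.06% higher. There Trps1 was at 4.97 CPM in wildtype and 3.73 CPM in the mutant (-0.41, -0.74 to -0.09) and Prrx2 at 105 and 80.0 CPM (-0.40). With 1 gene, Trps1 had a log2 ratio of -1.89 and Prrx2 of -0.88 (2 of 8 members lower, against 5.42% of 13249 genes). With 2 genes the ratios were -2.45 and -1.11 (2 of 8, against 11.2% of 11360 genes). Whether the ratios differ between these sets of cells was not tested, since each genotype has 1 library. The sets also kept the cells with at least 3 condensate markers, 200 in wildtype and 6 in the mutant.

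Within Wnt-active cells, Prrx2 was at 195 CPM in wildtype and 88.2 CPM in the mutant (-1.15, -1.35 to -0.94) and Trps1 at 59.3 and 10.1 CPM (-2.55, -3.19 to -1.98). These 2 of 8 members were lower, against 11.5% of 11638 genes. En1 was higher, at 52.9 and 83.0 CPM (0.65, 0.41 to 0.88), 1 of 8 against 8.71%. Without cells with 2 or more condensate markers, En1 was at 58.9 and 75.8 CPM (0.36). There 0 of 8 members were called higher, against 8.88% of genes. Trps1 was then at 35.2 and 8.14 CPM (-2.11, -2.94 to -1.39) and Prrx2 at 200.1 and 91.6 CPM (-1.13), 2 of 8 members lower against 10.8%. In cells that were not Wnt-active, Prrx2 was at 126 and 81.2 CPM (-0.64) and Trps1 at 13.8 and 4.51 CPM (-1.61), 2 of 8 members against 4.57% of 15304 genes. In Crabp1-type cells that were not Wnt-active, Prrx2 was at 149 and 91.5 CPM (-0.70) and Trps1 at 18.3 and 6.22 CPM (-1.56), 2 of 8 against 6.07% of 14176 genes.

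Clusters made without the member genes gave a finer split. In cluster 0, where most mutant upper cells lay, Trps1 was at 3.94 CPM (39 UMIs) in wildtype and 6.45 CPM (216 UMIs) in the mutant (0.71, 0.21 to 1.24). It was the 1 of 8 members higher there, against 9.97% of 13278 genes, and Prrx2 was at 112 and 97.0 CPM (-0.20). In cluster 2, Prrx2 was at 164 and 73.7 CPM (-1.15) and Trps1 at 24.2 and 6.89 CPM (-1.81), 2 of 8 members lower against 6.3% of 12640 genes. Cluster 5 was similar, with Prrx2 at 199.8 and 102 CPM (-0.97) and Trps1 at 16.7 and 4.98 CPM (-1.74), 2 of 8 against 6.27% of 11461 genes. Cluster 2 is led by histone genes (Hist1h1b, Hist1h2ap) and cluster 5 by mitotic genes (Cenpf, Ccnb1), so both are sets of cycling cells. These clusters are not uniform between genotypes: at a resolution of 1, a histone-led cluster held 1092 wildtype and 26 mutant dermal cells and another 15 and 632, and a cluster led by Igfbp5 and Rspo1 held 53 and 1500. In cluster 6, led by Aspn and Angptl1 (462 and 551 dermal cells), 0 of 7 measured members were called, against 4.9% of 11704 genes lower and 7.58% higher, and Prrx2 was at 58.8 and 60.4 CPM. In the dermal cells of cluster 12 (115 and 95 cells, led by Mfap5), 3 of 7 were lower, against 7.44% of 9593 genes: Irx1 (173 and 82.4 CPM, -1.07), Tcf4 (463 and 277 CPM, -0.74) and Prrx2 (86.4 and 55.6 CPM, -0.64). Cluster 8, with 998 wildtype and 9 mutant dermal cells, held 46.4 CPM of Trps1 and 183 CPM of Prrx2 in wildtype. Cluster 17, led by the condensate markers Foxd1, Sox18, Gal and Sox2, held 221 wildtype dermal cells and 0 mutant ones, with Trps1 at 231 CPM.

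Dermal condensates are the clusters of fibroblasts that become the dermal papilla. Cells with at least 3 of 8 condensate markers numbered 200 in wildtype and 6 in the mutant, so their profile is given for wildtype and without a genotype comparison. Trps1 was at 183 CPM (166 to 201) in them. In the 562 Wnt-active cells with fewer than 2 condensate markers it was at 35.2 CPM, a log2 ratio of 2.38. Prrx1 was at 669 and 409.6 CPM (0.71). These 2 of 8 members were higher, against 14.4% of 11210 genes. Irx1 was at 74.6 and 380.4 CPM (-2.35) and En1 at 17.7 and 58.9 CPM (-1.74), 2 of 8 lower against 17.4%. Twist1 (-0.29), Twist2 (0.12), Prrx2 (-0.34) and Tcf4 (-0.05) were not called. Trps1 was detected in 67.5% of the condensate cells thinned to 9000 UMIs.

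Co-detection was read in the thinned dermal cells. Trps1 was found in 532 of the 4000 wildtype cells, and of those 99.8% had a UMI of Tcf4, 96.6% of Twist2, 96.4% of Prrx1 and 70.1% of Prrx2. Tcf4 was found in 3888 of the 4000 cells, so few had no Tcf4 UMI, and Trps1 was in 0.893% of those. They also had less Irx1 (39.3%, against 78.6% of all cells) and Prrx2 (38.4%, against 64.0%). A link between Tcf4 and Trps1 was not tested. En1 was found in 31.6% of cells with Trps1 and 36.4% of those without it, and Irx1 in 72.9% and 79.4%. In the mutant these went the other way: among the 185 cells with Trps1, En1 was found in 49.2%, against 40.7% of those without it, and Irx1 in 84.9%, against 70.7%. The make-up of the cells also differed, with 200 condensate cells in wildtype and 6 in the mutant. In wildtype these held more Trps1 and less En1 and Irx1 than Wnt-active cells with fewer than 2 condensate markers. Their part in the co-detection was not tested.

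The paralogues were compared as shares of their summed UMIs, which are counted at transcript ends and not scaled by length, so the share is compared between cells and not read as a ratio of amounts. Prrx2 gave 27.2% (26.7% to 27.7%) of Prrx1 and Prrx2 UMIs in the wildtype dermis and 19.5% (19.0% to 19.9%) in the mutant. In Wnt-active cells the Prrx2 share was 30.3% and 18.8%, and in Clec3b/Mfap5-type cells 17.2% (14.9% to 19.8%) and 16.0% (14.7% to 17.3%). In wildtype mural-like cells it was 12.2%. The Prrx2 share in the upper mutant dermis, 20.2%, was thus nearer to that of the lower cells than to the wildtype upper share of 28.4%. Twist2 gave 38.9% and 37.8% of the Twist UMIs in the dermis, and 41.1% and 41.0% in Crabp1-type cells. In Clec3b/Mfap5-type cells the Twist2 share was 21.2% and 25.2%, in mural-like cells 12.4% and 9.10%, and in wildtype condensate cells 49.7%. The Twist2 share was thus close between genotypes in the whole dermis and its upper cells, while its intervals did not overlap in lower cells (19.1% to 23.4% and 23.9% to 26.6%) or in mural-like cells (11% to 13.9% and 7.85% to 10.5%).

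Related factors were taken from set lists, with those named being among the genes of at least 50 UMIs and the largest ratios in their list. Of 12 bHLH partners and antagonists, 10 were measured in the dermis and 2 were higher and 3 lower in the mutant, with a median log2 ratio of -0.17. Id1 and Id3, which bind E proteins and keep them off DNA, were at 205 and 100.2 CPM (-1.03) and at 313 and 186 CPM (-0.75), while the mesenchymal factor Hand2 was at 7.57 and 12.3 CPM (0.70) and the tendon factor Scx at 0.684 and 1.38 CPM (1.01). Of 8 paired-type relatives of the Prrx genes, 5 were measured, 1 higher and 2 lower, with a median of -0.14. Among the lower ones was Shox2 (66.5 and 25.6 CPM, -1.38), a limb and heart factor, and the higher one was Alx4 (4.64 and 7.33 CPM, 0.66). Shox2 was lower by more than Prrx2 was.

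Of 7 relatives of En1 and Irx1, 4 were measured, 0 were higher and 1 was lower, with a median of -0.23. Irx2 (-0.20), Irx3 (-0.26) and Irx5 (-0.16) had smaller ratios than Irx1 and were under the threshold, and Irx6 was called from 50 and 23 UMIs (-1.49). All 4 measured relatives were called higher in upper than in lower wildtype dermal cells, against 18.3% of genes, with a median log2 ratio of 2.38. The call of Irx6 rested on 39 and 1 UMIs, with an interval of -1.31 to 6.59. Of 32 other mesenchymal factors, 27 were measured, 3 higher and 4 lower, with a median of 0.18. Prdm1, a repressor, was at 12.4 and 1.47 CPM (-3.08) and Runx1 at 17.1 and 3.47 CPM (-2.30), the first lower by more and the second by slightly less than Trps1, whereas Meox2 was at 6.84 and 13.7 CPM. The counts beside them for all genes are 5.64% lower and 10.9% higher.

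Likeness of pattern was measured as Pearson's r of log2(CPM + 10) over 22 points, the 11 classes in each library, among 14911 genes with at least 100 UMIs; points of 1 library share their depth and free RNA. Twist1 was most like Ctsk (0.987), Hoxc9 (0.980) and Cdo1 (0.979), and Twist2 most like Pth1r (0.986), Vcam1 (0.980) and Lum (0.975). Prrx1 was most like Col6a3 (0.991), Cd248 (0.983) and Tbx18 (0.980). The gene most like Prrx2 was another member, Twist1 (0.977), followed by Hoxc9 (0.976) and Ctsk (0.959). En1 was most like Tbx15 (0.974), Rab6b (0.973) and Col6a3 (0.972), and Irx1 most like Cdo1 (0.959), C1qtnf2 (0.958) and Dcn (0.957). Tcf4 had looser company in Maged1 (0.936), Zfp945 (0.928) and Nfic (0.927). Trps1 was loosest, with Dusp6 (0.834), Cux1 (0.807) and Tle4 (0.801), and its r with the other members ran from -0.46 for En1 to 0.20 for Tcf4.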

How the data were processed

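UMI counts per gene and barcode were deposited for 1 wildtype and 1 Wntless mutant library (Chromium 3′ v3.1), which per the file headers come from Cell Ranger 6.1.2. The submitters' processing notes name mm10 and Seurat without their role. How the authors drew their lists of dermal barcodes is not given in the sources used here. Gene positions come from GENCODE M21, which held 32158 of the 32285 gene IDs. The members and gene lists were chosen with earlier results of these data known.

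From the counts, UMIs were summed per library and class and divided by the class total (CPM). Levels carry exact Poisson intervals, log2 ratios exact conditional binomial intervals and shares exact Clopper-Pearson intervals, all at 95%. With 1 library per genotype and 2 to 3 pooled embryos, they leave out variation between embryos. Total UMIs were 112593376 in wildtype and 159841679 in the mutant. Cells were clustered without the member genes (scanpy 1.11.5, leidenalg 0.10.2: counts scaled to 10000 per cell, 2000 variable genes, 30 principal components, 15 neighbours, resolution 0.5), and a cluster was named X-like from its markers. Dermal classes were set on thinned cells, and their CPM use all UMIs of those cells. All deposited barcodes were kept. A doublet caller marked 2.69% of wildtype and 0.00957% of mutant barcodes, so it had not worked in the mutant. Instead, the 8% of barcodes with the highest scores were left out as an alternative. All 8 members were named in every comparison, and related genes by the rule given with them; some that met it are not reported here. On simulated data for the dermal comparison (15609 genes, 200 of them changed), the intervals covered the known ratio in 92% to 98% of genes. The simulated counts had Poisson error alone, as the intervals assume. The simulation thus checks the calculation and not how well the intervals suit these data. The alternatives changed clustering, cell lists, folds, minimum counts, scaling, doublets, depth and marker cuts.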

Additional observations from a re-analysis of the deposited data

How the results depend on the processing

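No paired analysis was possible because each genotype has 1 library, and no library could be left out for the same reason. Of 75 counts of members under alternative settings, 66 stayed within 1.5 times the reported count and 9 did not, and no called ratio changed sign. Ratios under the threshold did: Prrx1 in the dermis reached 0.01, Prrx2 in mutant Wnt-active over other cells went from 0.12 to -0.23, and En1 in wildtype Wnt-active cells from -0.12 to 0.02. The count of members lower in the mutant dermis, 2 as reported, was 1 over fibroblast-named clusters, 6 at a smaller threshold (a log2 ratio of 0.32) and 1 at a fold of 2. The count higher in wildtype Wnt-active cells, 4 as reported, was 1 among Crabp1-type cells alone. In the mutant that count, also 4, was 1 with 1 or more Wnt genes, 2 with classes from cells thinned to 5000 UMIs and 1 among Crabp1-type cells alone. The count of members higher in the mutant within dermal classes, 1 as reported (En1), was 0 with 1 or more Wnt genes and 0 without cells with 2 or more condensate markers. The causes were not tested beyond what each setting changes. Shares of all genes were counted under only some of these settings, so the alternative counts describe the members alone. Over 12 alternatives the dermal log2 ratio of Trps1 lay between -2.64 and -1.27, that of Prrx2 between -0.81 and -0.52, Prrx1 between -0.22 and 0.01, Twist2 between -0.45 and -0.11 and Tcf4 between -0.40 and -0.10. The 5 alternatives chosen after seeing the data take, weight or drop whole clusters, keep cells of shared clusters, or give the shares of dermal cells with a UMI at 5000 UMIs. The setting of all 3 Wnt genes was not run in the mutant, which has 5 such cells. Depth limits Trps1 in lower dermal cells (2 and 8 UMIs) and in mutant Wnt-active cells.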
